A study of Mus musculus with 6 samples.

Results

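The 37 genes described here encode enzymes that build the glycerophospholipids of membranes, namely phosphatidylcholine, phosphatidylethanolamine, phosphatidylserine, phosphatidic acid and cardiolipin. They were chosen by function from a list of gene symbols and matched by symbol to the 56923 genes counted, and all 37 were found. They fall into 8 roles. PolyA RNA was sequenced from 3 prefrontal cortex samples labelled *Pla2g4e* KO and 3 labelled wild type (WT). The knockout is constitutive, so every cell of the mouse carries it. Its allele, tm2a on the C57BL/6N-A tm1Brd background, places a LacZ trapping element in *Pla2g4e* and is predicted to be null. The study took the prefrontal cortex as the anterior piece of the brain and used both sexes. Age and sex of the sequenced mice, and whether WT mice were littermates of KO mice, are not given in the sources used here. No treatment is labelled in either group.

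Glycerophospholipids are made along linked routes. Glycerol 3-phosphate is acylated to lysophosphatidic acid and then to phosphatidic acid, which is either dephosphorylated to diacylglycerol or activated to CDP-diacylglycerol. Choline and ethanolamine are phosphorylated, activated to CDP-choline and CDP-ethanolamine, and joined to diacylglycerol, a route known as the Kennedy pathway. Head groups can then be exchanged, and acyl chains are removed by phospholipases and put back by lysophospholipid acyltransferases, the Lands cycle. PLA2G4E acts on the products of these enzymes, since it moves an acyl chain from a donor phospholipid onto the amine of phosphatidylethanolamine and so makes N-acylphosphatidylethanolamine. The comparison of KO with WT therefore asks how the transcripts of the enzymes that supply its substrates stand in cortex that carries the knockout allele.

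The libraries held between 11792463 and 14594230 fragments over genes. The targeted gene was low in all of them. For *Pla2g4e*, KO replicates 1 to 3 gave 88, 97 and 102 fragments, and WT replicates 1 to 3 gave 100, 138 and 168. In CPM (a gene's share of the fragments, per 1e6, after TMM scaling between libraries) it averaged 7.35 in KO and 10.8 in WT, a log2 fold change of -0.55 (SE 0.21, limma adjusted p = 0.635). The first WT library lay inside the KO range, and fragments were summed over all exons of the gene, so a trapped transcript and a full one were counted together. Libraries also differed in ways the labels do not give. The 4 Y-linked genes examined (*Ddx3y*, *Kdm5d*, *Eif2s3y* and *Uty*) summed to 0 fragments in KO replicate 1 and 2 in WT replicate 1, against 2221 to 2383 in each of the other libraries. General neuron markers, a list not specific to cortex, were detected in every library, as were 10 markers of striatal neurons. The striatal markers summed to 262 and 268 CPM in WT replicates 1 and 2, to 350 to 460 in KO and to 435 in WT replicate 3. Of these, 10 of 10 were higher in KO on average. All 12 astrocyte markers were also higher in KO on average (median log2 fold change 0.07), and their summed level overlapped between groups, at 5067 to 5634 CPM in KO and 4787 to 5581 in WT. Oligodendrocyte markers were also lowest in WT replicates 1 and 2. The labels number the samples of a group without saying that each came from its own mouse, so p-values measure the spread between these samples only.

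No enzyme of the 37 passed the adjusted threshold of 0.05 (lowest adjusted p = 0.635 in limma). The background was the same, with 0 of 19084 tested genes (0.0%) passing. All 37 had enough fragments to be tested. At an unadjusted p under 0.05 there was 1 enzyme, *Mboat7*, which was lower in KO. Over all genes 1492 (7.82%) reached that level, so 1 of 37 was no more than the background. Of the 37, 17 were higher in KO and 20 lower, against 51.9% of all genes higher. The median log2 fold change of the enzymes was -0.01, beside 0.01 over all genes, and the median size of the change regardless of sign was 0.07, beside 0.13.

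The estimates were narrow enough to bound most of the differences. For 32 of the 37 enzymes the 95% interval of the fold change lay within 1.5-fold in either direction, compared with 58.9% of all genes tested. These were the 32 enzymes whose mean log2 CPM was 2 or more, a level chosen after the values were seen. Their log2 fold changes ran from -0.18 to 0.20 with SE from 0.06 to 0.17. The other enzymes, *Pemt*, *Agpat2*, *Mboat1*, *Lpin3* and *Plpp2*, had only 5 to 40 fragments per library and SE from 0.35 to 0.49, and their intervals reached past 1.5-fold, so at this depth a difference of that size could be neither shown nor bounded. The plot of differences with their intervals shows this contrast.

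**Figure D1:**
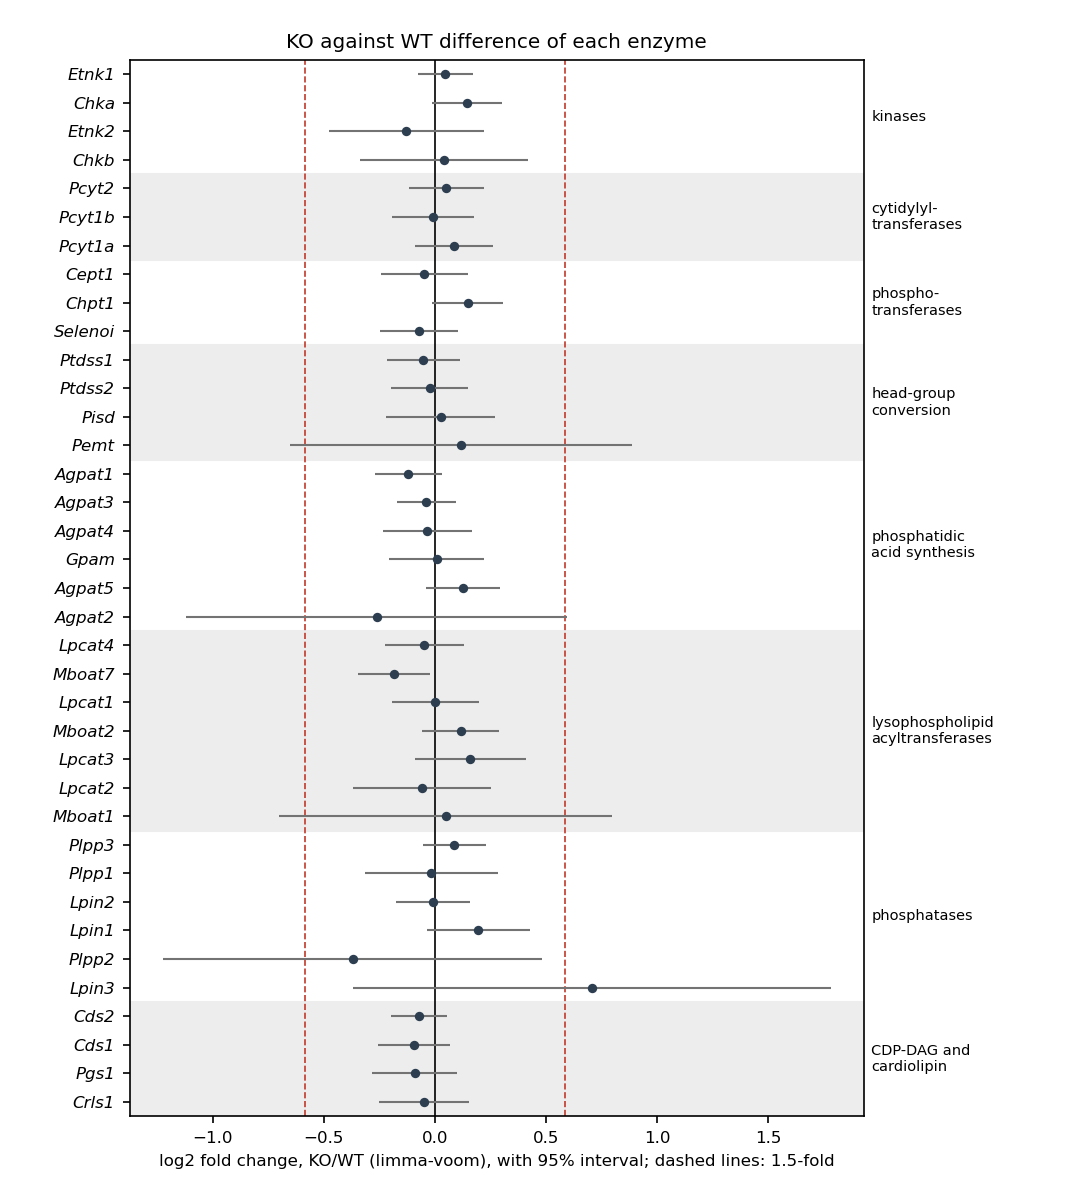
Log2 fold change (KO/WT) of each of the 37 enzymes from the limma-voom fit of 3 KO and 3 WT libraries, grouped by role, with 95% intervals as horizontal bars and dashed lines at 1.5-fold. The intervals of 32 enzymes stay between the dashed lines, and those of Pemt, Agpat2, Mboat1, Lpin3 and Plpp2 cross at least 1 of them.

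On TMM-scaled CPM the KO and WT libraries overlapped for all 37 enzymes, whereas 13% of all genes tested showed no overlap. That count turned on small margins. The highest KO value of *Mboat7* was 171.1 CPM and the lowest WT value 170.9. For *Chpt1* the lowest KO value was 63.0 and the highest WT value 63.3, and for *Chka* these were 116.8 and 117.1. With CPM of library totals alone, *Chka*, *Etnk1*, *Pcyt1a* and *Agpat5* had no overlap. On TPM (transcripts per 1e6, which also divides by exon length) the enzymes without overlap were *Chka*, *Chpt1*, *Agpat5*, *Mboat2* and *Plpp3*, which is 13.5% of the enzymes beside 13% of all genes on the same scale.

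The enzymes spanned a wide range of levels, and these were compared between genes only per length, as TPM. *Cds2* and *Plpp3* stood at the top with means of 237 and 235 TPM over the 6 libraries, and their ranges of 222 to 252 and 219 to 252 overlapped, so their order is not resolved. Next came *Lpcat4* (162), *Agpat1* (149), *Etnk1* (137), *Agpat3* (123) and *Cds1* (107), and neighbours in this run overlapped in their library ranges except *Etnk1* and *Agpat3*, and *Agpat3* and *Cds1*. A further 23 enzymes lay between 10 and 100 TPM. *Etnk2* (9.79) and *Chkb* (7.77) followed, and *Plpp2*, *Pemt*, *Mboat1*, *Agpat2* and *Lpin3* were under 4, with *Lpin3* lowest at 0.908 TPM. The levels of *Chkb* and *Pisd* may be understated. Fragments in exon bases shared with other annotated genes (50.7% and 20.9% of their bases) were not counted, while TPM divides by the full exon length. The top mean was 261 times the lowest. The plot of levels gives them by role.

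**Figure D2:**
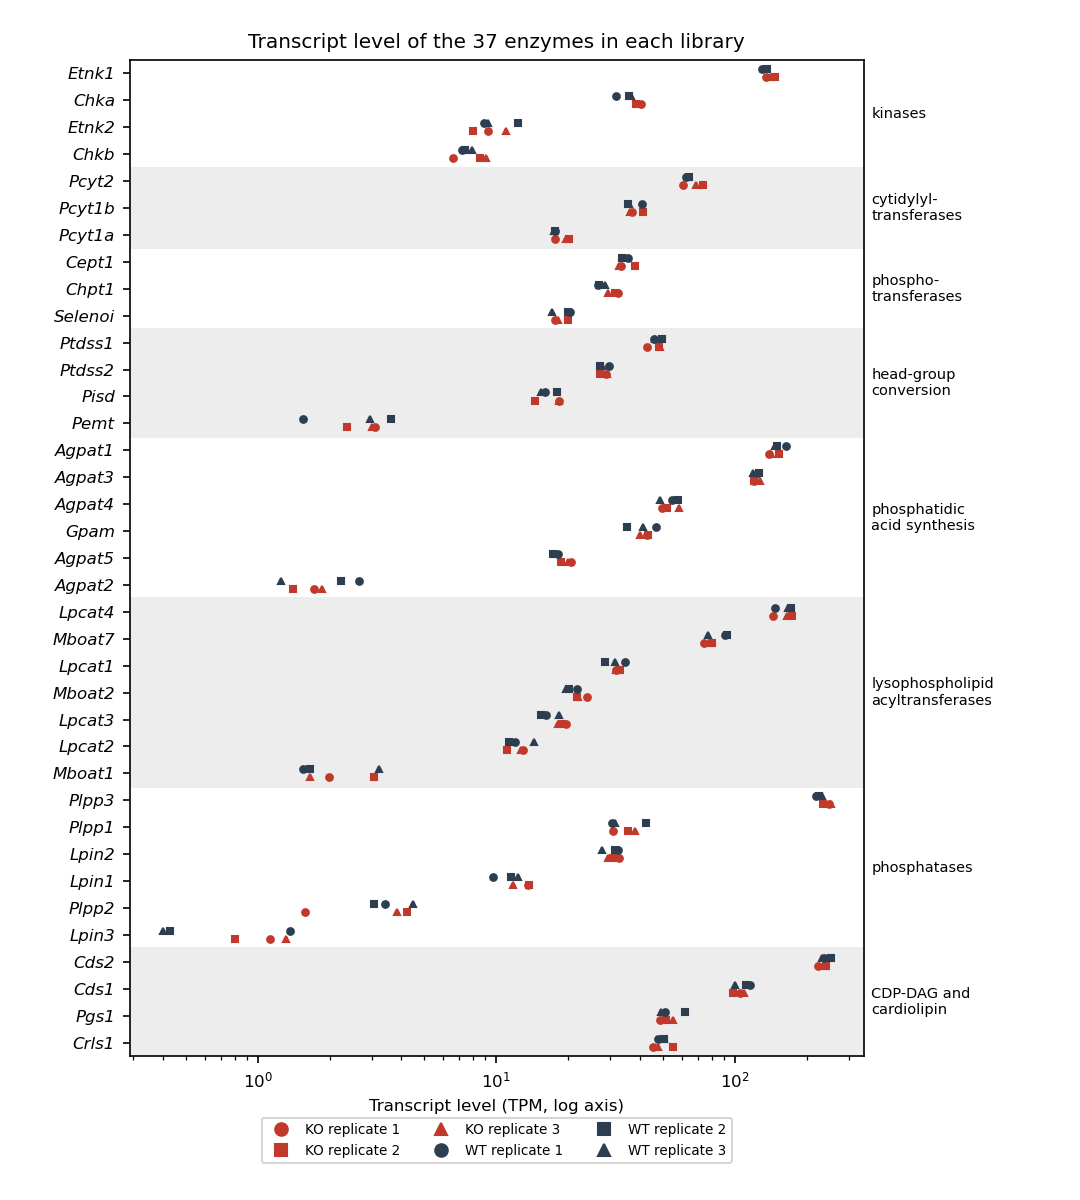
Level of each of the 37 enzymes in TPM (log axis) in the 3 KO and 3 WT libraries, grouped by role and ordered by mean level within a role. Points of both groups lie together at each enzyme, while enzymes of 1 role differ widely, as between Plpp3 (235) and Lpin3 (0.908).

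For 33 of the 37 enzymes a promoter window of 250 bases before to 50 bases after the start was found in the RefSeq tables, 47 windows in all because some genes have several starts. The others were *Pcyt2*, *Plpp1*, *Agpat5* and *Ptdss1*. Base shares and motifs were read only in the 250 bases before the start. Taking the richest window of each enzyme, the median share of G and C was 65.2%, against 52.4% over all single promoter windows. These measures are unlike, and the first leans high where an enzyme has several starts. *Plpp3* had the lowest share (42.4%) and *Lpin2* the highest (83.2%). The GC box, searched as GGGCGG on both strands, was present in 28 of 47 windows (59.6%) and in 32.7% of all 32851 windows, a set not limited to genes detected here. CCAAT was found in 38.3% of the windows and in 33.8% of all, and TATAAA in 4.26% against 12.4%. The letters TCACNCCAC, a form of the sterol regulatory element, were found in 2 windows, both of *Pcyt1a* (4.26%, against 1.05% of all), and CACGTG in 2, of *Crls1* and *Lpin2* (4.26%, against 6.02% of all). These are matches of letters and were not tested. The 3 enzymes of lowest p-value show how such promoters differ, and the 100 bases directly before their start are given 5′ to 3′ on the gene's strand from RefSeq on GRCm38.p6, with GC boxes (as GGGCGG or its complement CCGCCC) and CCAAT in capitals. *Mboat7* (chr7:3692987-3693086, minus strand) has 1 GC box. *Chpt1* (chr10:88503971-88504070, minus strand) has 3 GC boxes and 87% G and C. *Chka* (chr19:3851673-3851772, plus strand) has 1 GC box and 2 CCAAT.
Mboat7: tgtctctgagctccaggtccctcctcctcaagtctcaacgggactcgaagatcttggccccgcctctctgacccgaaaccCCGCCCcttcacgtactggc
Chpt1: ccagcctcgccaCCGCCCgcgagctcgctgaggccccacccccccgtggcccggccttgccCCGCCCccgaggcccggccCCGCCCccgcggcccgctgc
Chka: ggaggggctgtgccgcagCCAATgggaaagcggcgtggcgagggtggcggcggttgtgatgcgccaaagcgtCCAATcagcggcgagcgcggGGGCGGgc

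The first step of the Kennedy pathway belongs to the kinases of choline (*Chka*, *Chkb*) and of ethanolamine (*Etnk1*, *Etnk2*), of which 3 were higher and 1 lower in KO, none past the threshold. *Etnk1* led the role at 495, 525 and 510 CPM in KO replicates 1 to 3 and 485, 497 and 499 in WT replicates 1 to 3. The groups overlapped, and the log2 fold change was 0.05 (SE 0.06, 95% interval -0.08 to 0.17, limma adjusted p = 0.826), with a spread within groups lower than that of nearly all genes tested (percentile 1.33). Without KO replicate 2 the log2 fold change was 0.02, and without KO replicate 1 it was 0.07. *Etnk1* made up 91.7 to 94.8% of the summed TPM of both ethanolamine kinases. *Chka*, on chromosome 19 (GRCm39 3901773 to 3944369, plus strand), measured 126, 117 and 121 CPM in KO and 101, 112 and 117 in WT. KO replicates 1 and 3 lay above all WT libraries and KO replicate 2 just below the highest of them, for a log2 fold change of 0.14 (SE 0.07, 95% interval -0.01 to 0.30, limma adjusted p = 0.637). The log2 fold change was 0.08 without WT replicate 1, 0.19 without WT replicate 3 and 0.06 among the libraries with Y-linked expression. *Chkb* and *Etnk2* ranged from 5.20 to 7.11 and from 9.21 to 14.5 CPM. For *Chkb* the fit is uncertain, because 50.7% of its exon bases are also annotated to a neighbouring transcript and fragments in such overlaps were not counted.

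The rate-limiting step is the transfer of cytidylyl groups, with *Pcyt1a* and *Pcyt1b* making CDP-choline and *Pcyt2* CDP-ethanolamine. None passed the threshold and all had intervals within 1.5-fold. *Pcyt2*, the most abundant per length, gave 68.0, 81.0 and 76.9 CPM in KO and 71.8, 71.9 and 73.2 in WT. The KO libraries reached both below and above the WT libraries, and the log2 fold change was 0.05 (SE 0.08, 95% interval -0.12 to 0.22, limma adjusted p = 0.867), or -0.01 without KO replicate 2. *Pcyt1a*, the widely expressed isoform, and *Pcyt1b*, known from brain and gonads, had log2 fold changes of 0.09 (SE 0.08) and -0.01 (SE 0.08). *Pcyt1b* was the larger transcript pool of this pair in every library, at 65.0 to 70.0% of their summed TPM.

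The last step joins the activated head group to diacylglycerol. *Cept1*, whose enzyme accepts both CDP-choline and CDP-ethanolamine, was the most abundant of the role per length (TPM) though not in CPM, with 26.9, 30.0 and 26.2 CPM in KO and 29.2, 27.0 and 29.3 in WT. Its values were interleaved between groups, with a log2 fold change of -0.05 (SE 0.09, 95% interval -0.24 to 0.15, limma adjusted p = 0.901). This became -0.11 without KO replicate 2 and -0.01 without KO replicate 3. *Chpt1*, the choline-specific enzyme, on chromosome 10 (GRCm39 88288607 to 88339935, minus strand), measured 69.7, 66.0 and 63.0 CPM in KO and 58.6, 57.5 and 63.3 in WT. Only KO replicate 3 and WT replicate 3 crossed, and the log2 fold change was 0.15 (SE 0.07, 95% interval -0.01 to 0.31, limma adjusted p = 0.637). It was 0.09 among the libraries with Y-linked expression and 0.19 without WT replicate 3. *Selenoi*, the selenoprotein that makes phosphatidylethanolamine, lay between 59.8 and 70.5 CPM, with a log2 fold change of -0.07 (SE 0.08). That value was -0.02 without WT replicate 1, -0.14 without WT replicate 3 and 0.01 among the libraries with Y-linked expression.

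Conversion between head groups rests on *Ptdss1* and *Ptdss2*, which make phosphatidylserine from phosphatidylcholine and phosphatidylethanolamine, on *Pisd*, which decarboxylates phosphatidylserine in mitochondria, and on *Pemt*, which methylates phosphatidylethanolamine and is best known from liver. Here 2 were higher and 2 lower, and none passed the threshold. *Ptdss1* measured 47.7, 52.3 and 53.8 CPM in KO and 51.7, 54.8 and 52.6 in WT. The groups overlapped, and KO replicate 1 was the lowest library, so the log2 fold change of -0.05 (SE 0.08, 95% interval -0.22 to 0.11, limma adjusted p = 0.864) became 0.00 without it. *Ptdss1* held 59.9 to 64.5% of the summed TPM of both synthases. *Ptdss2* and *Pisd* had log2 fold changes of -0.02 (SE 0.08) and 0.03 (SE 0.11), the latter with 20.9% of its exon bases shared with other annotated genes. *Ptdss2* stood at 0.02 without WT replicate 1 and -0.06 without WT replicate 2. *Pisd* stood at 0.13 without KO replicate 2, -0.04 without KO replicate 1 and -0.05 among the libraries with Y-linked expression. *Pemt* was scarce at 11 to 25 fragments per library, and its interval from -0.65 to 0.89 bounds little.

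Phosphatidic acid synthesis starts with *Gpam*, the mitochondrial glycerol-3-phosphate acyltransferase, and goes on with the *Agpat* enzymes, of which AGPAT1 and AGPAT2 are the established lysophosphatidic acid acyltransferases. In this role 2 enzymes were higher and 4 lower. *Agpat1* was the most abundant per length (TPM), although *Agpat3* had more CPM, and measured 108, 116 and 110 CPM in KO and 130, 115 and 118 in WT. The highest library was WT replicate 1, and KO replicate 2 lay just above WT replicate 2, for a log2 fold change of -0.12 (SE 0.07, 95% interval -0.27 to 0.03, limma adjusted p = 0.662), or -0.07 without WT replicate 1 and -0.05 among the libraries with Y-linked expression. *Agpat3* and *Agpat4* differed by -0.04 (SE 0.06) and -0.03 (SE 0.09) on the log2 scale, and *Agpat5* by 0.13 (SE 0.08). *Agpat1* and *Agpat3* together made up 77.0 to 79.8% of the summed TPM of the 5 *Agpat* genes. *Agpat2*, best known from adipose tissue, was scarce as well. It gave 14, 9 and 13 fragments in KO against 19, 15 and 9 in WT, that is 0.946, 0.754 and 1.02 CPM against 1.49, 1.23 and 0.706, with a log2 fold change of -0.26 (SE 0.39, 95% interval -1.12 to 0.59), which was -0.04 without WT replicate 1 and -0.57 without WT replicate 3. *Gpam* varied more among WT libraries (60.8 to 82.1 CPM) than among KO libraries (68.7 to 73.7), and its log2 fold change was 0.01 (SE 0.10).

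Lysophospholipid acyltransferases put acyl chains back onto lysophospholipids. *Lpcat4* was the most abundant per length, at 105, 124 and 120 CPM in KO and 109, 125 and 125 in WT. Replicate 1 was the lowest library of each group, and the log2 fold change was -0.05 (SE 0.08, 95% interval -0.23 to 0.13, limma adjusted p = 0.888), or 0.02 without KO replicate 1. *Lpcat4* held 69.1 to 75.7% of the summed TPM of *Lpcat1* to *Lpcat4*. *Lpcat3*, whose enzyme places polyunsaturated chains into phosphatidylcholine, measured 15.3 to 16.6 CPM in KO and 12.9 to 15.9 in WT, a log2 fold change of 0.16 (SE 0.12, limma adjusted p = 0.709) that ran from 0.09 without WT replicate 2 to 0.24 without WT replicate 3. *Lpcat1* and *Lpcat2* differed by 0.00 (SE 0.09) and -0.06 (SE 0.14), and the scarce *Mboat1*, at 19 to 40 fragments per library, by 0.05 (SE 0.35). *Mboat2* differed by 0.12 (SE 0.08), or 0.06 without KO replicate 1 and 0.165 without WT replicate 1.

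*Mboat7*, whose enzyme adds arachidonate to lysophosphatidylinositol, was the enzyme of lowest p-value among the 37. It lies on chromosome 7 (GRCm39 3680788 to 3696522, minus strand). It measured 160.9, 169.1 and 171.1 CPM in KO replicates 1 to 3 and 200.6, 199.1 and 170.9 in WT replicates 1 to 3. WT replicates 1 and 2 stood above the other libraries, while WT replicate 3 sat with the KO libraries. The log2 fold change was -0.18 (SE 0.07, 95% interval -0.35 to -0.02, limma adjusted p = 0.635), which is 0.88 times the WT level with an interval from 0.787 to 0.984 times. The unadjusted p stayed under 0.05 in 13 of 17 alternative analyses. It did not in 4 of them, where the log2 fold change was -0.16 without KO replicate 1, -0.14 without WT replicate 1, -0.15 without WT replicate 2 and -0.12 in the 2 KO and 2 WT libraries with Y-linked expression. Without WT replicate 3 it was -0.26, and the adjusted p over the 17 alternatives ran from 0.258 to 0.999. Summed levels of neuron, oligodendrocyte and striatal neuron markers separated the same libraries. Those of astrocyte, oligodendrocyte precursor, microglia, endothelium, choroid plexus, meningeal fibroblast and blood markers did not. For microglia, WT replicates 1 and 2 were the highest and the lowest library (548 and 434 CPM), as for oligodendrocyte precursors (243 and 195). The summed level of 12 neuron markers was 10356 and 10764 CPM in WT replicates 1 and 2 and 9126 to 9645 in the other libraries, with 10 of the 12 markers lower in KO. The summed level of 12 oligodendrocyte markers was 1843 and 2047 CPM in WT replicates 1 and 2 and 2374 to 3055 in the other libraries, with 11 of 12 higher in KO. No marker of either list was at 0 in any library. Their part in the *Mboat7* difference was not tested, and in tissue RNA fewer cells of a type and less RNA per cell cannot be told apart.

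**Figure D3:**
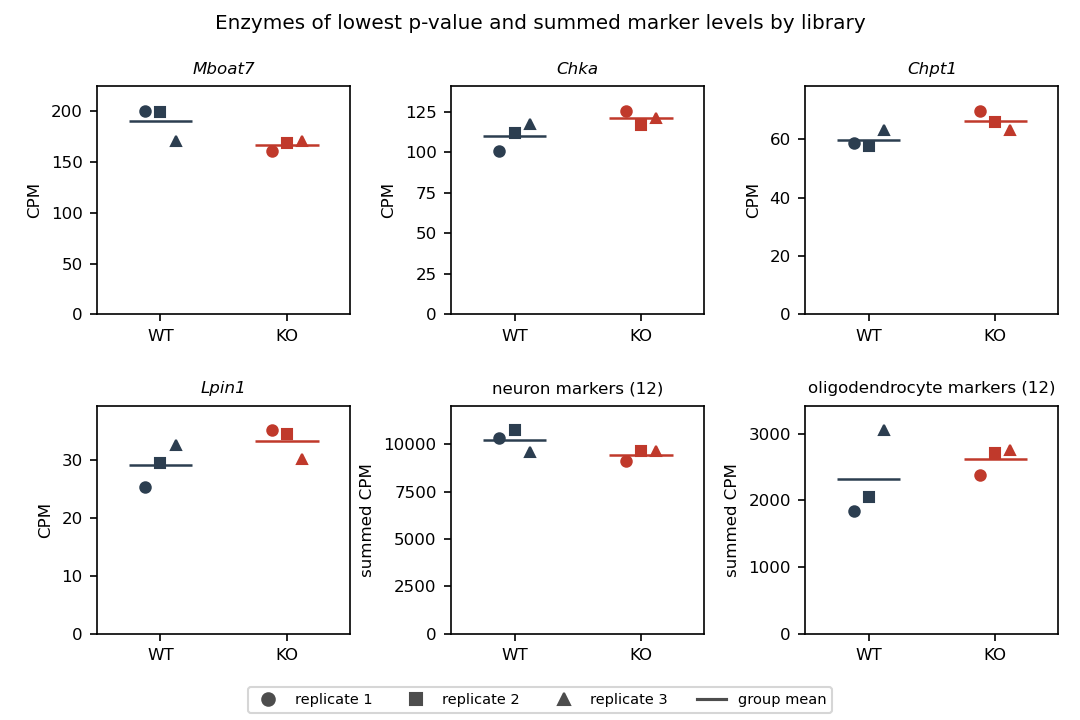
Level of Mboat7, Chka, Chpt1 and Lpin1, the enzymes of lowest p-value, and summed level of 12 neuron and 12 oligodendrocyte markers (CPM after TMM scaling) in each WT and KO library, with horizontal lines at group means of 3 libraries. WT replicates 1 and 2 are highest for Mboat7 and for neuron markers and lowest for oligodendrocyte markers, and groups overlap in each enzyme panel.

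Phosphatases turn phosphatidic acid into diacylglycerol inside the cell (the lipins) or act on lipid phosphates at membranes (*Plpp1* to *Plpp3*), and 3 of the 6 were higher and 3 lower. *Plpp3* dominated with 203, 186 and 205 CPM in KO and 182, 182 and 194 in WT, and made up 83.2 to 88.4% of the summed TPM of *Plpp1* to *Plpp3*. KO replicate 2 lay within the WT range, and the log2 fold change was 0.09 (SE 0.07, 95% interval -0.05 to 0.23, limma adjusted p = 0.723). *Lpin1*, which also acts as a transcriptional coregulator, measured 35.1, 34.4 and 30.1 CPM in KO and 25.3, 29.5 and 32.5 in WT. KO replicate 3 fell below the highest WT library, for a log2 fold change of 0.20 (SE 0.11, 95% interval -0.04 to 0.43, limma adjusted p = 0.651). This was 0.10 without WT replicate 1 and 0.05 among the libraries with Y-linked expression. It was 0.28 without WT replicate 3 and 0.26 without KO replicate 3. *Lpin2* was the main lipin, at 68.0 to 74.6% of their summed TPM, and differed by -0.01 (SE 0.08). The largest estimates of all 37 enzymes came from genes with few fragments. *Lpin3* was counted at 16, 9 and 16 fragments in KO against 17, 5 and 5 in WT, with a log2 fold change of 0.71 (SE 0.49, 95% interval -0.37 to 1.78, limma adjusted p = 0.702), and from 0.41 without WT replicate 3 to 1.26 without WT replicate 1, the 1 alternative in which its unadjusted p fell under 0.05. *Plpp2* came to 10, 21 and 21 fragments in KO against 19, 16 and 25 in WT, or 0.676, 1.76 and 1.64 CPM against 1.49, 1.31 and 1.96. KO replicate 1 was the lowest, and the log2 fold change of -0.37 (SE 0.39, 95% interval -1.22 to 0.48, limma adjusted p = 0.805) turned to 0.11 without that library.

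The CDP-diacylglycerol branch leads to phosphatidylinositol and, in mitochondria, to cardiolipin. All 4 of its enzymes had estimates below 0, between -0.09 and -0.05, and none passed the threshold. Single libraries moved these small values, since *Pgs1* stood at -0.001 without WT replicate 2, *Crls1* at 0.005 without KO replicate 1, *Cds2* at -0.04 without KO replicate 1 and *Cds1* at -0.05 without WT replicate 1. Other alternatives moved them away from 0, as far as -0.154 for *Pgs1*, -0.117 for *Crls1*, -0.089 for *Cds2* and -0.149 for *Cds1*. All but *Crls1* kept their sign in all 17 alternatives. *Cds2*, which makes CDP-diacylglycerol, measured 526, 555 and 562 CPM in KO and 570, 592 and 561 in WT. Only KO replicate 3 and WT replicate 3 crossed, and the log2 fold change was -0.07 (SE 0.06, 95% interval -0.20 to 0.06, limma adjusted p = 0.753). *Cds2* held 67.2 to 70.9% of the summed TPM of both CDP-diacylglycerol synthases. *Cds1* differed by -0.09 (SE 0.07). *Pgs1* and *Crls1*, the first and the last enzymes of cardiolipin synthesis, differed by -0.09 (SE 0.09) and -0.05 (SE 0.09).

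Within families the share of the leading paralogue was compared between groups. In 11 such shares the leading gene or genes were highest of the family in every library, and KO and WT ranges overlapped in 10. Over all genes tested, 13% showed no overlap on TPM, so 1 exception in 11 is no more than that background. With 3 libraries per group, overlap does not bound a difference. The exception was *Mboat7*, at 74.1 to 77.1% of the summed TPM of *Mboat1*, *Mboat2* and *Mboat7* in KO and 77.2 to 81.0% in WT, a margin set by KO replicate 3 and WT replicate 3. The share of *Chka* in *Chka* and *Chkb* may be overstated, since *Chkb* fragments in shared exon bases were not counted. No test was made of the shares, which the plot of paralogue shares gives for each library.

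**Figure D4:**
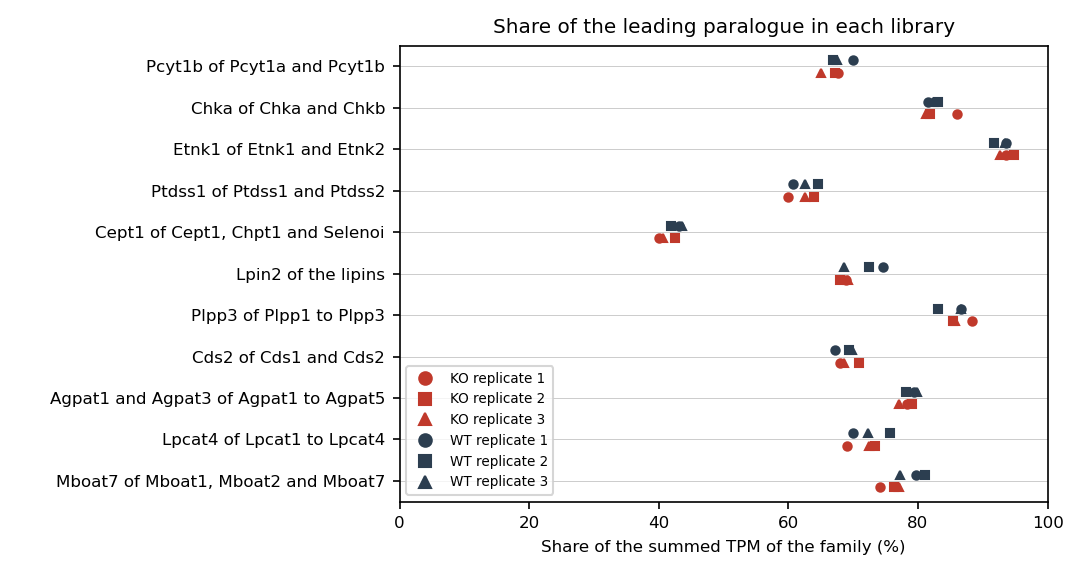
Share of the leading gene or genes in the summed TPM of 11 enzyme families (%), for each of the 3 KO and 3 WT libraries. Shares go from about 40% for Cept1 to over 90% for Etnk1, and KO and WT ranges overlap in 10 of the 11 families. The exception is Mboat7, whose points run from 74.1% in KO replicate 1 to 81.0% in WT replicate 2.

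Spread between replicates was small for these enzymes. The median SD of log2 CPM within groups was 0.10, beside 0.17 over all genes tested, and 29 of 37 lay below the median of all genes. Their mean level was also higher than that of most genes (median percentile 77.0). Single libraries still shaped the values. KO replicate 1 was the lowest library for 12 enzymes and the highest for 7, and WT replicate 1 was the highest for 12 and the lowest for 6, these being the libraries without Y-linked expression. Over all genes tested, KO replicate 1 was lowest for 20.0% and highest for 22.1%, and WT replicate 1 was highest for 18.8% and lowest for 20.9%. The part of sex-linked or other differences between libraries in this was not tested.

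Other genes of the same routes were read from the same fit. The list held 65 genes for glycerol 3-phosphate supply, other lysophospholipid acyltransferases, choline and ethanolamine transport, phosphatidylinositol, cardiolipin and ether lipid steps, diacylglycerol kinases, triacylglycerol synthesis, phosphatidylcholine turnover, lipin regulators, further phosphatases and transcriptional regulators. Of these, 61 were tested, 36 were higher and 25 lower in KO, and none passed the adjusted threshold. The median log2 fold change was 0.03. At an unadjusted p under 0.05 there were 3, all higher, which is 4.92% beside the 7.82% of all genes. *Gpcpd1*, a glycerophosphocholine phosphodiesterase that releases glycerol 3-phosphate and choline, measured 125, 119 and 126 CPM in KO and 104, 104 and 113 in WT, with a log2 fold change of 0.20 (SE 0.07, limma adjusted p = 0.635). *Dgki*, a diacylglycerol kinase of neurons, measured 50.2, 46.3 and 45.7 CPM in KO and 33.2, 43.6 and 44.3 in WT, with a log2 fold change of 0.24 (SE 0.11, limma adjusted p = 0.635), or 0.11 without WT replicate 1, where its unadjusted p was no longer under 0.05. *Far1*, which makes the fatty alcohols of ether lipids, measured 164, 173 and 170 CPM in KO and 149, 147 and 162 in WT, with a log2 fold change of 0.15 (SE 0.07, limma adjusted p = 0.635). Over the 17 alternatives the unadjusted p was under 0.05 in 16 for *Gpcpd1*, 10 for *Dgki* and 9 for *Far1*, and among the libraries with Y-linked expression it was so for none of them. On TMM-scaled CPM the groups did not overlap for any of them, and WT replicate 3 was the WT library nearest to KO. In all, 7 of the 61 (11.5%) had no overlap between groups, beside 13% of all genes. They included *Taz* and *Dgka*, higher in KO, and *Far2* and *Tmem189*, lower in KO.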

How the data were processed

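The deposited values are raw counts of fragments per gene. Per the labels, libraries were strand-specific and made from polyA RNA, and the submitters' processing notes name FastQC 0.11.8, STAR 2.7.9a, featureCounts 1.6.0 and GRCm39. Per the file headers, the authors counted read pairs over exons of GENCODE M31 on the reverse strand. The methods text names an earlier build, so gene coordinates are those of the files. Promoter sequences come from RefSeq on GRCm38.p6.

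The 19084 genes with at least 6 fragments in at least 1 library were tested, as in the study, with TMM factors (edgeR 4.0.16), voom and limma 3.58.1 (R 4.3.3), two-sided, with Benjamini-Hochberg adjustment over all of them. TPM was computed from counts and exon length. Symbols came from a GENCODE table and 52073 genes matched. Counting error excludes amplification duplicates. The code was tested on simulated counts. Alternatives were edgeR's quasi-likelihood test, DESeq2 1.42.0, other scalings, filters, weights and designs, and leaving out each library. The enzymes and lists were chosen with earlier results of these data known. Named with the value in every library were enzymes with an unadjusted p under 0.05 or no overlap, the enzyme of highest TPM in each role, the 2 largest changes where mean log2 CPM was 0 or more, and other genes of the routes with an unadjusted p under 0.05. *Chka*, *Chpt1*, *Lpin1* and *Lpin3* were added after their values were seen.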

Additional observations from a re-analysis of the deposited data

How the results depend on the processing

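In all 17 alternatives no enzyme of the 37 and no other gene of the routes passed the adjusted threshold, whereas over all genes 1 passed in DESeq2, 23 with Y-linked expression as a covariate, 3 among the libraries with Y-linked expression, and 0 to 1 when 1 library was left out. Unadjusted, all genes under 0.05 numbered 902 in DESeq2 and 696 among the libraries with Y-linked expression, and 782 to 2239 when 1 library was left out. Of the 37 enzymes, 3 (*Chka*, *Chpt1* and *Mboat7*) were under 0.05 with library totals alone, where 7.80% of all genes were, and 0 among the libraries with Y-linked expression. Leaving out 1 library gave 0 to 4, beside 4.13 to 11.8% of all genes. The 4 were *Chka*, *Chpt1*, *Mboat7* and *Lpin1* without WT replicate 3, where 11.8% of all genes were under 0.05. Of the other genes of the routes, 1 was under 0.05 in DESeq2 and 0 among the libraries with Y-linked expression. When 1 library was left out there were 1 to 7. Over all genes the shares were 4.73% in DESeq2, 3.77% among the libraries with Y-linked expression and 4.13 to 11.8% with 1 library left out. The median log2 fold change of the other genes of the routes was 0.054 with library totals alone. Other scales for the overlap between groups were added after the data were seen. The enzymes without overlap numbered 0 on TMM-scaled CPM, 4 on CPM of library totals and 5 on TPM, while the share over all genes stayed near 13%. Among the libraries with Y-linked expression the sign turned for 8 of the 37 enzymes, including *Plpp2* (0.073). When 1 library was left out, log2 fold changes crossed 0 for 18 of the 37. Of those named with values in every library, these were *Ptdss1* (-0.088 to 0.0024), *Lpcat4* (-0.113 to 0.024), *Plpp2* (-0.609 to 0.111) and *Pcyt2* (-0.0070 to 0.126). The cause was not tested. Of the 37 enzymes, 18 kept their sign in all 17 alternatives. Deviations of same-numbered libraries correlated at 0.27, 0.06 and -0.02 for replicates 1 to 3. Both replicate 1 libraries lack Y-linked expression. Libraries of different number were not compared in this way, so these values cannot tell whether replicate numbers pair the libraries. With the replicate block, 0 genes passed the adjusted threshold, 1693 had an unadjusted p under 0.05, and 1 of the 37 enzymes (*Mboat7*) was among them. With 3 libraries per group, the depth left the 5 scarce enzymes with intervals past 1.5-fold.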
